A study of Homo sapiens with 28 samples.

Results

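BMF and 6 other BH3-only genes, BBC3, PMAIP1, BCL2L11, BID, BAD and BIK, were followed by gene symbol through a table of 58735 genes counted in 28 RNA-seq libraries, which form 14 groups of 2. All came from MDA-MB-231, a mesenchymal-like line of triple-negative breast cancer (human). One derivative overexpressed Tpm2.1, a tropomyosin that binds actin filaments and is the product of TPM2, and the other carried the empty vector (EV); both were kept in puromycin, and each genotype was represented by 1 line. Cells were either attached for 6 hours or held in ultra-low attachment wells for 5 hours, 1 day, 2 days or 4 days, and the suspended Tpm2.1 cells were separated on Annexin V beads into an apoptotic and a non-apoptotic fraction. No such separation is described for suspended EV cells or for attached cells. As a result, genotype and bead handling cannot be told apart where the lines are compared in suspension. The change from attached to suspended Tpm2.1 cells combines loss of attachment with that separation, as does its difference from the change in EV cells. Attached cells were sampled at 6 hours only. From 1 day on, loss of attachment and time in culture therefore cannot be told apart in either line. The 14 groups were therefore apoptotic Tpm2.1 cells at 4 times, non-apoptotic Tpm2.1 cells at 4 times, attached Tpm2.1 cells, EV cells in suspension at 4 times and attached EV cells.

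BH3-only proteins start the mitochondrial route of apoptosis: they carry the short BH3 helix, with which they occupy the groove of survival proteins such as BCL2, BCL-XL and MCL1 or activate the pore formers BAX and BAK. Each answers to a different stress, some by transcription and some by release of a stored protein. Loss of attachment to matrix can kill epithelial cells, a death called anoikis, and BMF and BIM, the product of BCL2L11, are the members best known from it in human mammary epithelial cells. BMF protein is held on the actin-based myosin V motor through dynein light chain 2 and is freed when the cytoskeleton is disturbed. PUMA, the product of BBC3, and NOXA, the product of PMAIP1, are mainly controlled by transcription, and NOXA binds mainly MCL1 and the BCL2A1 protein. BID is cut by caspase 8, BAD is held inactive by 14-3-3 proteins while phosphorylated, and BIK acts from the endoplasmic reticulum.

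BMF lies on the minus strand of chromosome 15 (hg38, chr15:40087890-40108892, ENSG00000104081), PMAIP1 on the plus strand of chromosome 18 (chr18:59899948-59904306, ENSG00000141682) and BCL2L11 on the plus strand of chromosome 2 (chr2:111119378-111168447, ENSG00000153094). The 250 bases before the RefSeq start of these 3 genes (GRCh38.p14) are shown because BMF and PMAIP1 moved in opposite directions when EV cells lost attachment, and BCL2L11 is the BH3-only gene best known as a forkhead (FOXO) target. They span chr15:40108880-40109129 on the minus strand, chr18:59899746-59899995 on the plus strand and chr2:111120664-111120913 on the plus strand. Capitals mark the forkhead core GTAAACA and the GC box GGGCGG on either strand.
BMF: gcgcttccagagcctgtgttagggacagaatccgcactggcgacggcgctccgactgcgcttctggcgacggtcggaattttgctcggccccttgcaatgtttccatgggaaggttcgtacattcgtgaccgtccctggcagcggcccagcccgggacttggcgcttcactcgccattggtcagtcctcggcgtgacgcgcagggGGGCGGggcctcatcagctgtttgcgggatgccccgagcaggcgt
PMAIP1: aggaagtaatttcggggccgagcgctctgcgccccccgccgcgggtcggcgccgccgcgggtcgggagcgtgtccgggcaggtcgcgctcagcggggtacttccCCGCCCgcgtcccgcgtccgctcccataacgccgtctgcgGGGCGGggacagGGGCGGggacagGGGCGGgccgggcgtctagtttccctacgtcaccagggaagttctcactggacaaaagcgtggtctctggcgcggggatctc
BCL2L11: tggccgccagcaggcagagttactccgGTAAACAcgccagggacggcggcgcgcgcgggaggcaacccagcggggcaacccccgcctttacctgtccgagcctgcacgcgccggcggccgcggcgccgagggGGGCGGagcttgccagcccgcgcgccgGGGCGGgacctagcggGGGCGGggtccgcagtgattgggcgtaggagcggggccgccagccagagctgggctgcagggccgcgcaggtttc
GTAAACA occurred once in the BCL2L11 window, 223 bases before the start, and in none of the windows of BMF, PMAIP1, BBC3, BID and BAD. It occurred in 2.98% of 35116 promoter windows of this length. GGGCGG occurred 1 time in the BMF window, 4 times in that of PMAIP1 and 3 times in that of BCL2L11, and 42.6% of all windows held it. The matches are a description of these letters and were not tested against any binding.

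The 28 libraries held 13043529 to 27416335 counted reads. The nuclear RNAs MALAT1 and NEAT1 together took 0.016% to 0.026% of the counts in attached libraries and 0.046% to 0.166% in suspended ones. The attached libraries also carry other numbers in their names than the suspended ones. Whether library processing had a part in differences between attached and suspended cells was not tested. Both apoptotic libraries of the 4-day time stood apart: 18183 and 18676 genes were detected in them, against 21275 to 24530 in the other 26, and mitochondrial mRNAs took 5.86% and 6.40% of their counts, against 1.12% to 5.34%. From 5 hours to 2 days that share was 2.67% to 5.34% in apoptotic and 1.22% to 1.62% in non-apoptotic Tpm2.1 libraries. It was 3.10% to 4.36% in EV libraries of those times. The part of this difference in the comparisons of fractions and lines was not tested. TPM2 followed the labels, with group means of 2556 to 7584 CPM (counts scaled to library size) in the 9 Tpm2.1 groups and 24.9 to 45.6 CPM in the 5 EV groups. Of the markers of the line, the mesenchymal genes VIM, FN1 and ZEB1 and the epithelial KRT8 and KRT18 had at least 446 counts in every library, while mesenchymal CDH2 had at most 8 and epithelial CDH1 at most 7. Of the remaining epithelial markers, KRT19 had 52 to 1671 counts, EPCAM 56 to 247 and KRT7 0 to 73. Of the other cell types, PTPRC and CD3E had at most 3 counts and CDH5 at most 7, but CD14 had 5 to 72, PECAM1 5 to 139 and VWF 1 to 68. All 7 genes passed the filter on low counts that left 17191 genes for the tests. Fold changes below are edgeR quasi-likelihood estimates with their standard error (SE), called at a Benjamini-Hochberg adjusted p under 0.05 over those 17191 genes. In bulk RNA, a larger share of expressing cells and more RNA per cell cannot be told apart.

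Scaled to gene length, the pool of BH3-only mRNA was led by PMAIP1 and BAD. The median over the 28 libraries was 42.8 FPKM, a level scaled to gene length and library size, for PMAIP1, 15.8 for BAD, 6.24 for BID, 4.28 for BMF, 2.72 for BCL2L11, 2.53 for BBC3 and 0.935 for BIK. Ranks and shares between genes depend on that length, a fixed value for each gene that does not follow the isoforms expressed. BMF made up 0.774% of the summed FPKM of the 7 genes in attached Tpm2.1 cells and 0.923% in attached EV cells. In suspension its share stayed between 3.77% and 5.84% in non-apoptotic Tpm2.1 cells. In EV cells the share after 5 hours was 12.2%, after 1 day 17.7%, after 2 days 13.6% and after 4 days 21.2%. PMAIP1 held 58.0% to 73.2% of the pool in suspended non-apoptotic Tpm2.1 cells, against 27.2% to 41.2% in suspended EV cells. The pool in suspended Tpm2.1 cells was thus mostly PMAIP1, and that in suspended EV cells was spread over BAD, PMAIP1 and BMF.

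**Figure D1:**
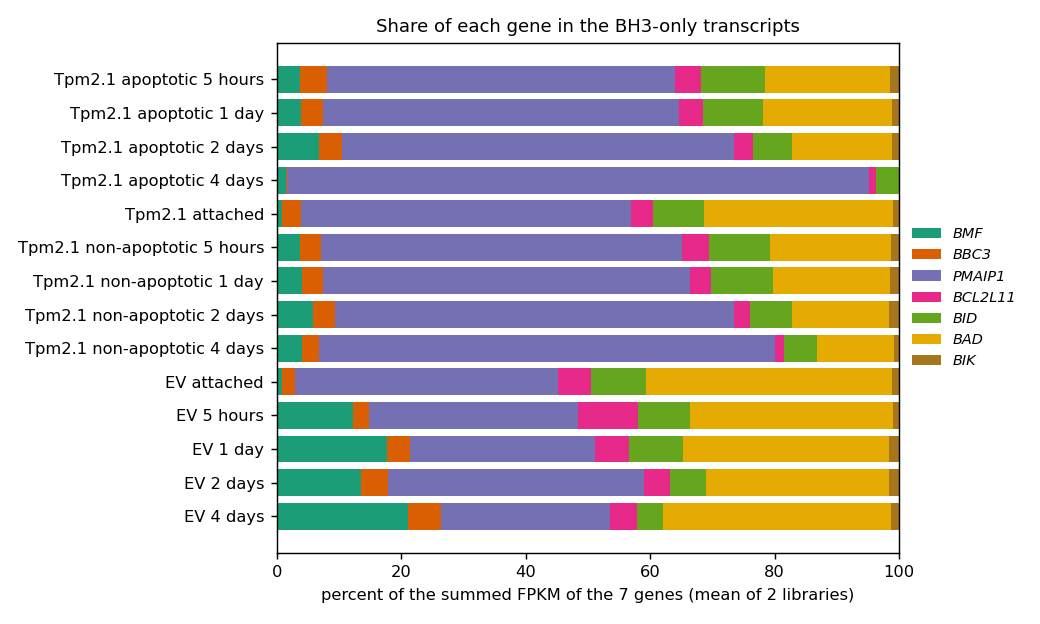
Share of each of the 7 genes in their summed FPKM, in percent, as the mean of the 2 libraries of each group, with the groups down the page. BMF takes 3.77% to 5.84% of the pool in suspended non-apoptotic Tpm2.1 cells and 12.2% to 21.2% in suspended EV cells, while PMAIP1 takes 93.6% in apoptotic Tpm2.1 cells at 4 days. These shares were not corrected for transcript GC content, with which the fold changes between the fractions moved at 4 days.

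BMF was the BH3-only gene with the largest change from attached to suspended cells, in both lines. In Tpm2.1 cells it had 3.40 and 3.50 CPM attached, and the non-apoptotic fraction had 13.8 and 15.6 CPM at 5 hours, 16.2 and 18.1 CPM at 1 day, 30.8 and 32.8 CPM at 2 days and 33.0 and 29.8 CPM at 4 days. Every library of the fraction lay above both attached ones. The log2 fold change over attached Tpm2.1 cells was 2.09 ± 0.12 at 5 hours (edgeR adjusted p = 2.63e-17), and it was 2.32 ± 0.12 after 1 day, 3.20 ± 0.11 after 2 days and 3.18 ± 0.11 after 4 days. Within suspension the step that stood out was that of 2 days over 1 day, at 0.88 ± 0.09 (edgeR adjusted p = 5.73e-09), where 12.2% of all genes tested passed.

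In EV cells the increase of BMF was larger. EV cells had 3.10 and 3.41 CPM attached, 34.3 and 32.6 CPM after 5 hours in suspension, 46.1 and 43.1 CPM after 1 day, 43.2 and 42.3 CPM after 2 days and 79.1 and 81.9 CPM after 4 days. No library of the non-apoptotic Tpm2.1 fraction overlapped the EV libraries of the same time. The log2 fold change over attached EV cells was 3.36 ± 0.12 at 5 hours (edgeR adjusted p = 3.86e-24), and it was 3.77 ± 0.11 after 1 day, 3.71 ± 0.11 after 2 days and 4.62 ± 0.11 after 4 days. On the log2 scale, most of the change was thus present at the first time sampled, and BMF rose again late. Between consecutive times it rose by 0.41 ± 0.08 on the log2 scale at 1 day over 5 hours (edgeR adjusted p = 0.000127), where 39.4% of all genes passed, and by 0.91 ± 0.08 at 4 days over 2 days (edgeR adjusted p = 1.26e-11), where 39.1% passed. The step of 2 days over 1 day was -0.06 ± 0.08 and did not pass, in a comparison where 19.2% of all genes passed.

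**Figure D2:**
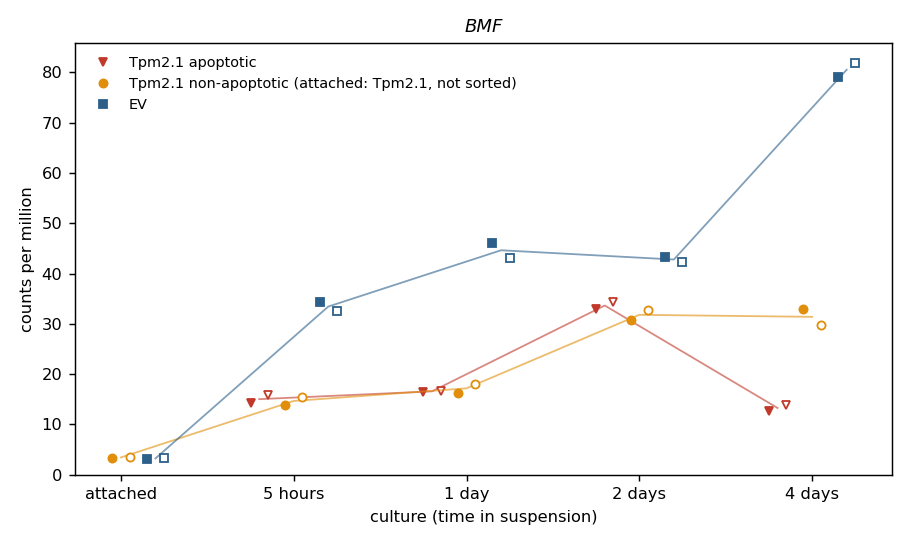
BMF in CPM (linear axis from 0) in attached cells and at 4 times in suspension, placed at even steps; filled and open symbols are the 2 libraries of a group and lines join group means. Non-apoptotic Tpm2.1 libraries sit at 13.8 to 33.0 CPM in suspension, below the EV libraries of the same time (32.6 to 81.9 CPM), and both attached groups sit at 3.10 to 3.50 CPM.

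The difference between the lines was tested directly. In attached cells BMF had a log2 fold change of 0.08 ± 0.16 for Tpm2.1 over EV, which did not pass (edgeR adjusted p = 0.783). The change on suspension in Tpm2.1 minus that in EV was -1.17 ± 0.16 on the log2 scale as the mean of the 4 times (edgeR adjusted p = 4.18e-07). At single times it was -1.27 ± 0.18 after 5 hours, -1.45 ± 0.18 after 1 day, -0.51 ± 0.18 after 2 days and -1.44 ± 0.18 after 4 days, and each passed. The value at 2 days was the one nearest the threshold (edgeR adjusted p = 0.0221) and did not pass once a trend of the log ratios with transcript GC content was removed (-0.43). Within suspension, BMF was lower in non-apoptotic Tpm2.1 than in EV cells at all 4 times, with log2 fold changes of -1.18 ± 0.09, -1.37 ± 0.09, -0.43 ± 0.09 and -1.36 ± 0.08 in order of time.

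The levels of BMF over the 14 groups therefore ran from EV cells at 4 days, with a mean of 80.5 ± 2.04 CPM (SD, n = 2), to attached EV cells, with 3.26 ± 0.22 CPM. Of the 13 pairs of neighbours in that order, 5 had libraries that did not overlap and 8 overlapped. EV cells at 1 day and 2 days were neighbours that overlapped, as were EV cells at 5 hours and both Tpm2.1 fractions at 2 days, and the 2 attached groups. The gaps lay below EV cells at 4 days, below EV cells at 2 days, below the non-apoptotic fraction at 4 days, below the apoptotic fraction at 1 day and above the attached groups.

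The other 6 genes had smaller changes on suspension, and PMAIP1 changed in opposite directions in the lines as the mean of 4 times. As the mean of the 4 times, 3 of the 7 genes passed in non-apoptotic Tpm2.1 cells, 2 higher and 1 lower, where 61.4% of all genes tested passed, 30.8% higher and 30.6% lower; 5 of the 7 passed after the GC trend was removed. In EV cells 6 of 7 passed, 2 higher and 4 lower, where 66.3% of all genes passed, 34.2% higher and 32.2% lower. The median log2 fold change of the 7 genes was 0.24 in non-apoptotic Tpm2.1 and -0.18 in EV cells, beside medians of 0.03 and 0.07 over all genes tested. The change on suspension differed between the lines for 4 of 7 genes, 2 more positive and 2 more negative in Tpm2.1, where 33.5% of all genes differed, 17.0% and 16.6% in those directions.

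At single times, the counts varied with time and with the GC trend. In non-apoptotic Tpm2.1 over attached Tpm2.1 cells, 2 of the 7 genes passed after 5 hours, where 45.2% of all genes did, 2 after 1 day (54.8%), 4 after 2 days (56.8%) and 5 after 4 days (62.4%). With the GC trend removed these counts were 4, 2, 4 and 5. In suspended over attached EV cells, 5 passed after 5 hours (54.7% of all genes), 6 after 1 day (63.0%), 6 after 2 days (64.6%) and 4 after 4 days (59.5%). The change on suspension differed between the lines for 3 genes after 5 hours (28.8% of all genes), 3 after 1 day (26.7%), 4 after 2 days (34.4%) and 5 after 4 days (28.4%). With the GC trend removed the counts of differing genes were 3, 4, 3 and 3. BMF, PMAIP1 and BID accounted for the 3 genes at 5 hours.

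**Figure D3:**
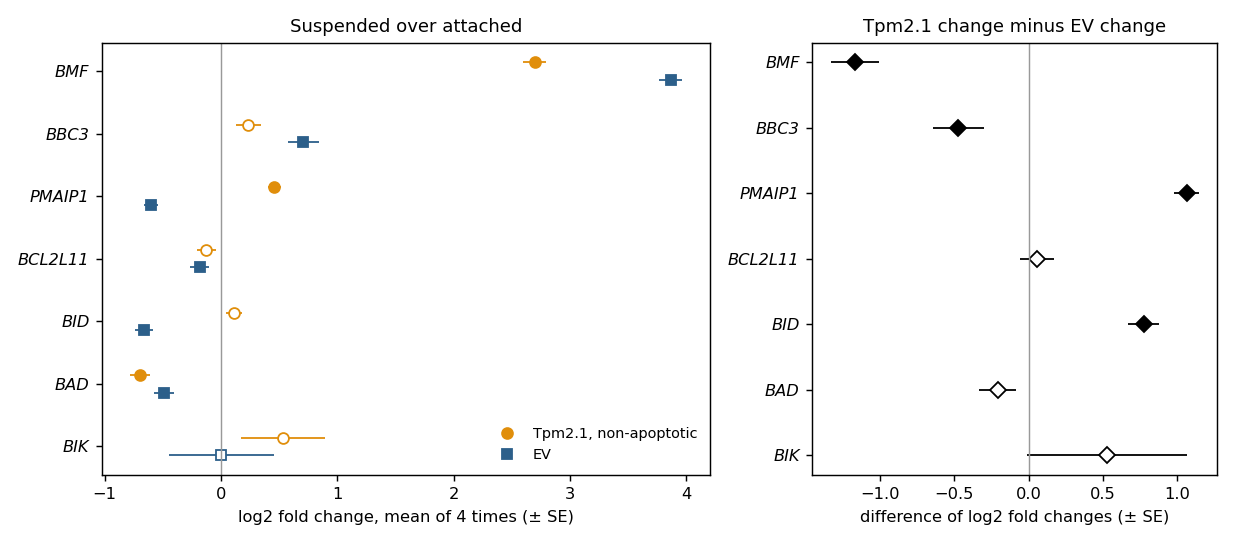
Log2 fold change of suspended over attached cells for the 7 genes (left; non-apoptotic Tpm2.1 above EV within each gene) and the difference between the lines (right), each as the mean of 4 times with its SE; filled symbols passed an adjusted p of 0.05. BMF stands at 2.70 in Tpm2.1 and 3.87 in EV, and PMAIP1 lies at 0.46 in Tpm2.1 and -0.60 in EV.

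PMAIP1, which encodes NOXA, was higher in Tpm2.1 cells throughout and moved opposite to BMF in EV cells. In Tpm2.1 cells it had 97.6 and 96.4 CPM attached, and in the non-apoptotic fraction 94.7 and 90.7 CPM at 5 hours, 106 and 98.9 CPM at 1 day, 129 and 158 CPM at 2 days and 231 and 235 CPM at 4 days. In EV cells it had 62.9 and 59.5 CPM attached, 40.1 and 35.2 CPM at 5 hours, 30.0 and 31.6 CPM at 1 day, 51.6 and 54.9 CPM at 2 days and 42.9 and 42.0 CPM at 4 days. Every suspended EV library lay below both attached ones, and the lines did not overlap in any library. PMAIP1 was higher in attached Tpm2.1 than in attached EV cells, with a log2 fold change of 0.67 ± 0.07 (edgeR adjusted p = 4.48e-09), and the gap in suspension was 1.73 ± 0.04 as the mean of 4 times and 2.46 ± 0.08 at 4 days. On suspension it rose by 0.46 ± 0.06 on the log2 scale in non-apoptotic Tpm2.1 cells (edgeR adjusted p = 3.78e-09) and fell by 0.60 ± 0.06 in EV cells (edgeR adjusted p = 2.98e-11). The difference between those changes was 1.06 ± 0.08 (edgeR adjusted p = 9.11e-13) and passed at each of the 4 times, at 0.63 ± 0.11 after 5 hours and 1.79 ± 0.11 after 4 days. At 5 hours and 1 day the Tpm2.1 change itself did not pass, with values of -0.07 ± 0.07 and 0.08 ± 0.07, while the EV change was -0.70 ± 0.08 and -0.99 ± 0.08. After the GC trend was removed, the 5-hour change in Tpm2.1 was -0.21 and passed (edgeR adjusted p = 0.00272), a decrease as in EV cells, and the mean without 4 days was 0.10 and did not pass. The increase of PMAIP1 in Tpm2.1 cells passed at 2 days and 4 days, with and without that correction.

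BBC3, which encodes PUMA, was higher in Tpm2.1 than in EV cells when both were attached. It had 8.04 and 8.16 CPM in attached Tpm2.1 cells, against 4.24 and 3.98 CPM in attached EV cells, a log2 fold change of 0.98 ± 0.15 (edgeR adjusted p = 6.65e-06). In the non-apoptotic Tpm2.1 fraction it had 7.46 and 7.49 CPM at 5 hours, 8.14 and 8.23 CPM at 1 day, 11.0 and 11.2 CPM at 2 days and 13.4 and 11.1 CPM at 4 days. In suspended EV cells it had 4.28 and 3.96 CPM at 5 hours, 6.37 and 4.71 CPM at 1 day, 7.65 and 8.04 CPM at 2 days and 12.3 and 10.8 CPM at 4 days. The increase over attached EV cells passed from 1 day on and reached 1.49 ± 0.16 at 4 days (edgeR adjusted p = 9.37e-11). By 4 days the lines overlapped, and the Tpm2.1 over EV difference there was 0.09 ± 0.14 and did not pass (edgeR adjusted p = 0.675), while after the GC trend was removed it was 0.45 and passed (edgeR adjusted p = 0.0106). The change on suspension differed between the lines by -0.47 ± 0.17 as the mean of 4 times (edgeR adjusted p = 0.0316), which was -0.02 and did not pass after the GC trend was removed. The BBC3 transcript has a GC content of 69.7%, the highest of the 7. The same call was lost without any 1 of 7 of the 20 libraries in it, each of the 4 attached libraries, EV replicate 1 at 1 day and at 4 days and non-apoptotic replicate 2 at 4 days, at values of -0.42 to -0.51. DESeq2 gave it -0.46 at an adjusted p of 0.0633.

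BID, the substrate of caspase 8, separated the lines in suspension. In the 8 non-apoptotic Tpm2.1 libraries it had 30.2 to 36.8 CPM, beside 29.2 and 30.2 CPM in attached Tpm2.1 cells. It had 12.5 to 19.9 CPM in the 8 suspended EV libraries, with a lower level at 4 days (12.5 and 13.7 CPM) than attached (24.8 and 25.9 CPM). No suspended EV library reached the lowest Tpm2.1 library. On suspension its log2 fold change in Tpm2.1 cells was 0.11 ± 0.07 as the mean of 4 times and did not pass, and in EV cells it fell by 0.66 ± 0.08 (edgeR adjusted p = 1.22e-09). The difference between the lines was 0.77 ± 0.11 (edgeR adjusted p = 3.49e-07), and the difference at single times was 0.53 ± 0.14 at 5 hours and 1.10 ± 0.14 at 4 days.

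BCL2L11, which encodes BIM, had an early and short increase in EV cells. Non-apoptotic Tpm2.1 libraries at 5 hours had 20.8 and 20.4 CPM, against 20.3 and 17.6 CPM in attached Tpm2.1 cells, and the change of 0.12 ± 0.10 did not pass. The gene had 24.6 and 21.8 CPM in attached EV cells, 32.5 and 32.0 CPM at 5 hours, 16.4 and 17.3 CPM at 1 day, 15.8 and 15.6 CPM at 2 days and 20.1 and 20.5 CPM at 4 days. The 5-hour EV libraries were above and those of all later times below both attached ones. In EV cells it rose by 0.48 ± 0.10 on the log2 scale at 5 hours over attached (edgeR adjusted p = 9.01e-05) and fell by 0.93 ± 0.10 between 5 hours and 1 day (edgeR adjusted p = 2.6e-09). The change at 5 hours in Tpm2.1 minus that in EV cells, -0.36 ± 0.14, did not pass (edgeR adjusted p = 0.0526). At 1 day this difference was 0.34 ± 0.15 (edgeR adjusted p = 0.0876; 0.40 and passed after the GC trend was removed), and at 2 days it was 0.41 ± 0.15 and passed (edgeR adjusted p = 0.032), in the direction opposite to 5 hours. In attached cells BCL2L11 was lower in Tpm2.1, with a log2 fold change of -0.29 ± 0.10 (edgeR adjusted p = 0.0351), a call lost without EV replicate 1 (-0.20) or Tpm2.1 replicate 2 (-0.19). The mean over 4 times in EV cells, -0.18 ± 0.08 (edgeR adjusted p = 0.0414), mixed the early increase with later decreases and was lost without attached replicate 1 (-0.10) or without 1-day replicate 1, 2-day replicate 2 or 4-day replicate 1 (-0.18 to -0.19). An exon of BCL2L11 shares 727 bases with the noncoding gene MIR4435-2HG on the opposite strand, which had 161 to 1402 counts a library, and the strand rule of the counting is not given in the sources used here.

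BAD, the partner of 14-3-3 proteins, was lower in suspension in both lines. In Tpm2.1 cells it had 41.6 and 43.2 CPM attached and 23.3 to 31.3 CPM in the non-apoptotic fraction at the 4 times. In EV cells it had 44.6 and 42.8 CPM attached, 24.6 to 31.1 CPM from 5 hours to 2 days and 49.9 and 38.0 CPM at 4 days. It fell by 0.70 ± 0.09 on the log2 scale in non-apoptotic Tpm2.1 cells as the mean of 4 times (edgeR adjusted p = 4.67e-09) and by 0.49 ± 0.09 in EV cells (edgeR adjusted p = 5.39e-06). At 4 days the EV value alone was 0.01 ± 0.11 and did not pass. The difference between these changes was -0.21 ± 0.12 and did not pass (edgeR adjusted p = 0.214), with -0.51 ± 0.16 at 4 days as the only single time that passed (edgeR adjusted p = 0.0145; -0.23 and not passed after the GC trend was removed). Exons of BAD share 404 bases with GPR137 on the opposite strand, which had 96 to 2266 counts. BIK was near the floor of these libraries, with 0 to 32 counts in each, and its changes on suspension, 0.53 ± 0.36 in Tpm2.1 and 0.00 ± 0.45 in EV cells, did not pass. At counts this low the SE was large beside the estimate, so these tests do not show that BIK was unchanged.

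**Figure D4:**
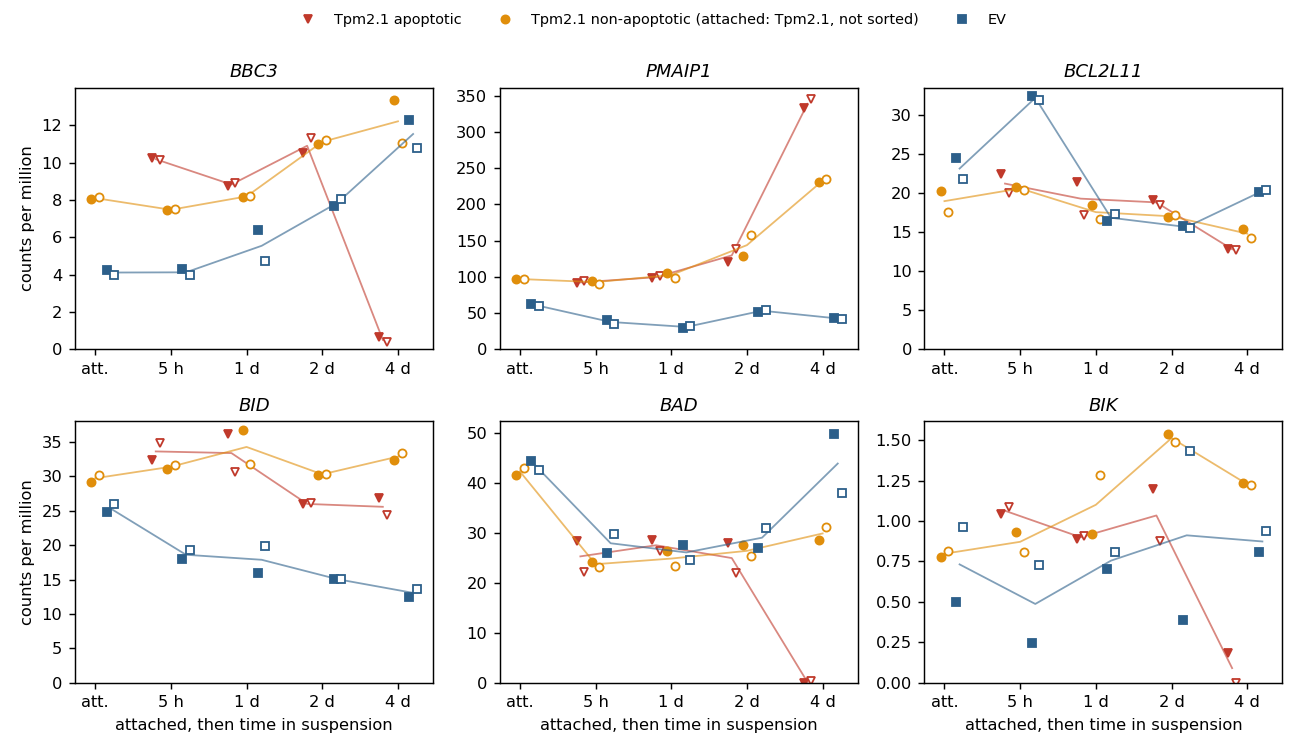
CPM of the other 6 genes (linear axes from 0, each panel with its own scale) in attached cells and at 4 times in suspension; filled and open symbols are the 2 libraries of a group. PMAIP1 and BID libraries of Tpm2.1 cells lie above those of EV cells at every time, and BBC3, BAD and BIK are near 0 in apoptotic Tpm2.1 cells at 4 days.

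Set against suspended EV cells, non-apoptotic Tpm2.1 cells differed in all 7 genes as the mean of 4 times, 4 higher and 3 lower, where 60.5% of all genes passed, 28.6% higher and 32.0% lower. PMAIP1 at 1.73 ± 0.04, BID at 1.00 ± 0.05, BBC3 at 0.51 ± 0.08 and BIK at 0.65 ± 0.25 were higher, and BMF at -1.08 ± 0.04, BCL2L11 at -0.23 ± 0.06 and BAD at -0.25 ± 0.06 were lower. The BIK call was lost without EV replicate 1 at 5 hours (0.50), EV replicate 1 at 2 days (0.49) or non-apoptotic replicate 2 at 1 day (0.58). BAD changed sign, to 0.07, after the GC trend was removed, and its call was lost without 4 days (-0.15, edgeR adjusted p = 0.0765); of the single times only 4 days passed, at -0.55 ± 0.12. BMF, PMAIP1 and BID kept their direction and call under every alternative run for this comparison. Between the lines at single times in suspension, 5 of 7 genes passed after 5 hours, where 40.9% of all genes did, 4 after 1 day (40.0%), 4 after 2 days (44.4%) and 5 after 4 days (43.9%; 6 with the GC trend removed). In attached cells 3 of 7 genes passed, BBC3 and PMAIP1 higher and BCL2L11 lower in Tpm2.1, where 20.5% of all genes passed, 10.4% higher and 10.1% lower.

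Up to 2 days, 1 difference between the Annexin V fractions of Tpm2.1 cells passed as counted among the 7 genes and these times, BBC3 at 5 hours, and a different one, PMAIP1 at 2 days, passed after the GC trend was removed. BMF had 14.3 and 15.8 CPM in the apoptotic fraction, against 13.8 and 15.6 CPM in the non-apoptotic fraction, at 5 hours. It had 16.5 and 16.7 CPM in apoptotic, against 16.2 and 18.1 CPM in non-apoptotic cells at 1 day, and 33.0 and 34.2 CPM in apoptotic, against 30.8 and 32.8 CPM in non-apoptotic cells at 2 days. The libraries of the fractions overlapped at 5 hours and 1 day, and at 2 days the apoptotic ones lay just above the others. The log2 fold changes of BMF were 0.03 ± 0.10, -0.06 ± 0.10 and 0.08 ± 0.09 at these times, and none passed. Of the 7 genes, 1 passed at 5 hours, where 21.4% of all genes passed, 0 at 1 day, where 19.3% passed, and 0 at 2 days, where 16.6% passed. At an unadjusted p under 0.05 the edgeR count was 0 at 1 day and 2 at 2 days, PMAIP1 and BID, named here after their values were seen. The 1 gene was BBC3 at 5 hours, with 10.2 and 10.1 CPM in apoptotic, against 7.46 and 7.49 CPM in non-apoptotic cells, a log2 fold change of 0.45 ± 0.14 (edgeR adjusted p = 0.0238). After removal of the GC trend that value was 0.00 and did not pass, while PMAIP1 at 2 days, -0.15 ± 0.07 as counted (edgeR adjusted p = 0.158), was -0.19 and passed (edgeR adjusted p = 0.0155). At 5 hours the genes in the highest tercile of GC content had a median of 0.18.

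At 4 days the fractions differed in most of the 7 genes, in a comparison where 72.1% of all genes tested passed and GC content moved with the fold change. BMF had 12.8 and 13.8 CPM in apoptotic, against 33.0 and 29.8 CPM in non-apoptotic cells, and the log2 fold change was -1.24 ± 0.11 (edgeR adjusted p = 2.45e-13). PMAIP1 went the other way, with 333 and 345 CPM in apoptotic, against 231 and 235 CPM in non-apoptotic cells, at 0.54 ± 0.07 (edgeR adjusted p = 3.56e-09). BID was lower at -0.36 ± 0.10, and BCL2L11 at -0.21 ± 0.13 did not pass. BAD, BBC3 and BIK were nearly absent. BAD had 0 and 3 counts in the apoptotic libraries, against 418 and 435 counts in the non-apoptotic ones, and the ratio of its counts per read was 0.00411 (exact 95% interval 0.000845 to 0.0120, counting error only). For BBC3 the counts were 7 and 4, against 195 and 154, with a ratio of 0.0368 (0.0182 to 0.0667), and for BIK 2 and 0, against 18 and 17, with a ratio of 0.0667 (0.00778 to 0.260).

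Across all genes, the median log2 fold change of apoptotic over non-apoptotic cells at 4 days was -1.75 in the highest tercile of transcript GC content and 0.81 in the lowest. The transcripts of BBC3 (69.7% GC) and BAD (66.3%) are the most GC-rich of the 7 and that of PMAIP1 (37.2%) the least. After removal of that trend, BMF was at -0.31, PMAIP1 changed sign to -0.38, BBC3 was at -1.54, BAD at -5.07 and BIK at -2.58, and 0 of the 7 genes were higher and 6 lower. The direction of PMAIP1 between the fractions at 4 days thus turned with that correction, while that of BMF, BBC3, BAD and BIK did not. The part of depth of detection, mitochondrial share and GC content in these values was not tested beyond this correction.

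**Figure D5:**
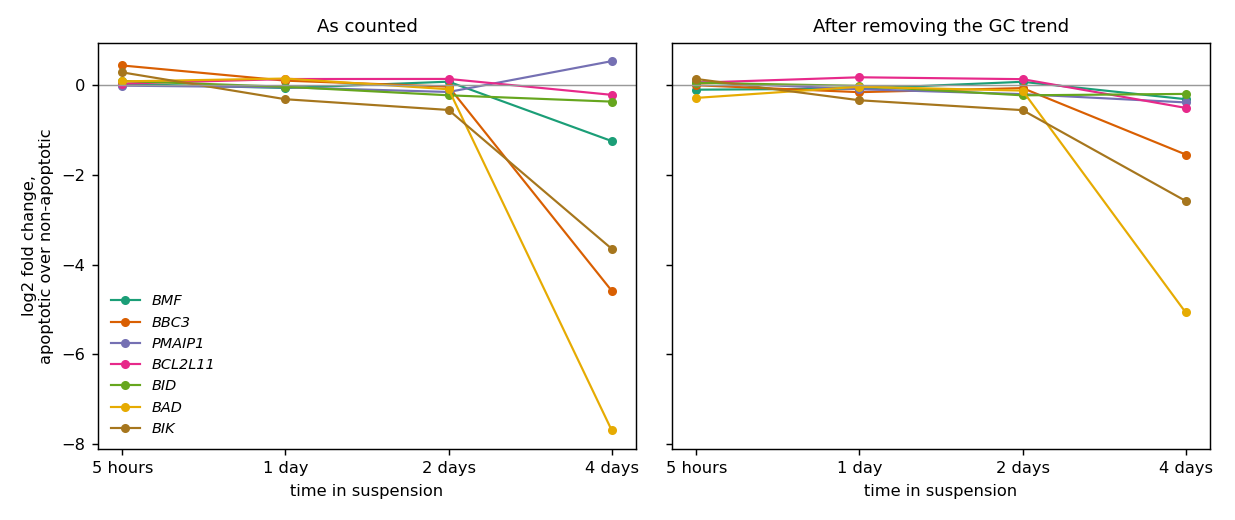
Log2 fold change of apoptotic over non-apoptotic Tpm2.1 cells for the 7 genes at 4 times in suspension, as counted (left) and after removal of the GC trend (right). Up to 2 days, BBC3 at 5 hours (0.45) is the 1 value that passed as counted and PMAIP1 at 2 days (-0.19) the 1 that passed after the correction, and at 4 days BAD, fitted from 0 and 3 apoptotic counts, stands at -7.70 as counted and -5.07 after the correction, while PMAIP1 moves to the other side of 0 (0.54 and -0.38).

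Over time, BMF in apoptotic cells had its own late decrease. It rose by 1.02 ± 0.10 on the log2 scale at 2 days over 1 day (edgeR adjusted p = 5.58e-10), where 12.6% of all genes passed, and fell by 1.34 ± 0.11 at 4 days over 2 days (edgeR adjusted p = 1.55e-14), where 74.6% passed; the second value was -0.36 after removal of the GC trend. PMAIP1 rose at both steps, by 0.38 ± 0.07 and 1.39 ± 0.07, and its step at 4 days stood at 0.45 after the correction. Set against 5 hours, the difference between the fractions at 4 days had moved in 6 of the 7 genes, where 66.9% of all genes passed. As the mean of 4 times 6 of the 7 genes passed between the fractions, where 58.0% of all genes passed.

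The genes whose course over the 14 groups was most like that of BMF, by Pearson r of log2 CPM among 11353 protein-coding genes with a group mean of at least 5 CPM, were PFKFB4, CLCN6, IGDCC4, PRXL2A and TEP1. PFKFB4 encodes an enzyme that sets the level of fructose 2,6-bisphosphate in glycolysis, CLCN6 a chloride/proton exchanger of endosomes and TEP1 a protein associated with telomerase. Their r values with BMF were 0.949, 0.943, 0.938, 0.926 and 0.924 in that order, and 0.923 to 0.964 over the 13 groups other than apoptotic cells at 4 days. PFKFB4 had a mean of 105 CPM in non-apoptotic Tpm2.1 cells at 4 days. In EV cells its mean was 22.3 CPM attached, 76.3 CPM at 5 hours and 147 CPM at 4 days. None of the other 6 BH3-only genes was close: r with BMF ran from -0.546 for BID to 0.272 for BBC3. BBC3, BAD and BIK had r of 0.840 to 0.959 with each other; without the 4-day apoptotic group, where all 3 are near 0, they were 0.817 for BBC3 and BIK, -0.151 for BBC3 and BAD and -0.273 for BAD and BIK. The gene most like PMAIP1 was SAMSN1 (0.971), most like BBC3 IER2 (0.971), most like BCL2L11 OTULIN (0.895), most like BID PTDSS1 (0.939), most like BAD TMEM115 (0.997) and most like BIK FUZ (0.962). Without the 4-day apoptotic group these r values were 0.96, 0.87, 0.86, 0.94, 0.88 and 0.83 in that order. All points share 1 scaling and the same libraries, so these values describe likeness of course.

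Among survival and effector genes of the BCL2 family, 8 of 9 listed were tested. On suspension 2 rose and 5 fell in non-apoptotic Tpm2.1 cells as the mean of 4 times, with a median of -0.26, and in EV cells 0 rose and 7 fell, with a median of -0.53. Over all genes, 30.8% rose and 30.6% fell in Tpm2.1 cells (median 0.03) and 34.2% rose and 32.2% fell in EV cells (median 0.07). BCL2L1, which encodes BCL-XL, fell in both as the mean of 4 times, by 0.89 ± 0.04 in Tpm2.1 and 1.00 ± 0.04 in EV cells on the log2 scale. It was lowest at 5 hours and rose again later. In Tpm2.1 cells it averaged 351.5 CPM attached, and 144 CPM at 5 hours and 262 CPM at 4 days in the non-apoptotic fraction. In EV cells it averaged 416 CPM attached, 137 CPM at 5 hours and 363 CPM at 4 days. BCL2 averaged 19.8 CPM in attached Tpm2.1 cells and 4.96 CPM in the non-apoptotic fraction at 4 days. In EV cells it averaged 18.2 CPM attached and 10.6 CPM at 4 days. BCL2A1, a survival gene whose protein NOXA binds, rose by 1.55 ± 0.08 in Tpm2.1 and fell by 0.99 ± 0.10 in EV cells, and the difference of 2.54 ± 0.13 passed (edgeR adjusted p = 2.1e-18). MCL1, the main survival partner of NOXA, had a difference between the lines of 0.87 ± 0.06 (edgeR adjusted p = 5.1e-15). At 4 days MCL1 averaged 1298 CPM in non-apoptotic Tpm2.1 and 559 CPM in EV cells, and BCL2A1 104 and 7.99 CPM. PMAIP1, MCL1 and BCL2A1 were thus all higher in non-apoptotic Tpm2.1 than in EV cells at 4 days.

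Of 12 transcriptional regulators known to act on BH3-only genes, 3 rose and 8 fell on suspension in non-apoptotic Tpm2.1 cells, and 2 rose and 7 fell in EV cells, beside the same shares of all genes, 30.8% and 30.6% in Tpm2.1 and 34.2% and 32.2% in EV cells. FOXO4, a forkhead factor, rose by 1.52 ± 0.16 in Tpm2.1 and 1.41 ± 0.17 in EV cells. ATF3, a stress-induced factor, fell by 1.52 ± 0.15 in EV cells, and DDIT3, which encodes CHOP, and ATF3 were higher in non-apoptotic Tpm2.1 than in EV cells in suspension, by 1.02 ± 0.07 and 1.57 ± 0.11 as the mean of 4 times. For DDIT3 this held up to 2 days: at 4 days it had 16.3 and 16.2 CPM in non-apoptotic Tpm2.1 cells, against 19.3 and 18.3 CPM in EV cells, and the value of -0.21 ± 0.13 did not pass.

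Of 4 tested genes for other BH3-only or BH3-like proteins, 3 rose and 1 fell on suspension in Tpm2.1 cells as the mean of 4 times, where 30.8% of all genes rose and 30.6% fell, and 3 rose and 0 fell in EV cells, where 34.2% rose and 32.2% fell. At 5 hours alone, 0 rose and 3 fell in Tpm2.1 cells and 1 rose and 2 fell in EV cells, in comparisons where 45.2% and 54.7% of all genes passed. BNIP3 and BNIP3L, mitophagy receptors, stood at 0.40 ± 0.06 and 0.40 ± 0.06 in Tpm2.1 and at 0.31 ± 0.06 and 0.20 ± 0.06 in EV cells as means of 4 times. At 5 hours they had fallen, BNIP3 by 0.49 ± 0.07 in Tpm2.1 and 1.11 ± 0.07 in EV cells and BNIP3L by 0.32 ± 0.07 in Tpm2.1 and 0.65 ± 0.07 in EV cells. Of 18 genes whose products hold, cut or phosphorylate BH3-only proteins, 2 rose and 13 fell in Tpm2.1 cells, where 30.6% of all genes fell, and 1 rose and 14 fell in EV cells, where 32.2% fell. DYNLL2, the light chain that holds BMF protein, was lower in Tpm2.1 than in EV cells both attached (-0.67 ± 0.08, edgeR adjusted p = 1.5e-08) and suspended (-0.39 ± 0.04 in the non-apoptotic fraction). Between the fractions without the 4-day libraries, 0 of the 7 BH3-only genes passed in edgeR or in DESeq2 and 1, BBC3, had an unadjusted p under 0.05 in edgeR, where 38.5% of all genes passed. In the same comparison 0 of the 18 genes of this last list were higher and 12 lower in apoptotic cells, YWHAE and DYNLL1 among them at -0.34 ± 0.03 and -0.29 ± 0.03. At 4 days, where 72.1% of all genes passed, 13 were higher and 4 lower, with YWHAE at 0.85 ± 0.05 and DYNLL1 at 0.20 ± 0.06. The values of this and the other gene lists were not corrected for the GC trend. Over all genes that trend at 4 days ran from a median of 0.81 in the lowest GC tercile to -1.75 in the highest. The part of GC content in the turn of this list was not tested.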

How the data were processed

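Poly(A) RNA was primed with random hexamers and sequenced, per the labels' protocols. The authors deposited a table of raw read counts per gene and a table of FPKM for the same 28 libraries; hg38 and DESeq2 appear in the submitters' processing notes with no role given, with aligner, counter and strand setting not given in the sources used here. FPKM as deposited equalled counts divided by gene length and by a scaled library total, to a relative deviation of at most 5.33e-15. The deposited gene_length column, a count of bases, served only for that check. All 58735 gene IDs and their coordinates matched GENCODE release 29.

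Counts were tested with edgeR 4.0.16 (quasi-likelihood F test; genes kept by filterByExpr with the groups given, totals scaled by TMM, 14 group means fitted over all 28 libraries, 14 residual degrees of freedom, common coefficient of biological variation 4.77%), under R 4.3.3. TMM factors ran from 0.829 to 1.078. Each p was adjusted by Benjamini-Hochberg over the 17191 genes within a comparison. SE is the absolute log2 fold change divided by the square root of F, an approximation. CPM used the TMM-scaled totals. Changes on suspension were compared between lines by the difference of the 2 contrasts. Comparisons that share attached or EV libraries are not independent of each other.

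The alternatives comprised a test in DESeq2 1.42.0, edgeR with DESeq2 size factors, all genes kept without the low-count filter, the libraries of a comparison alone, the replicate number as a block, a GC correction (an offset from the lowess trend, span 0.2, of log ratios against the longest transcript's GC share), block and correction together, leaving out each library and leaving out 4 days. A fit without the 4-day apoptotic libraries was added after seeing the data. The scripts were tested on simulated counts. The labels call the replicates biological and do not describe separate cultures, so p-values measure the spread between these libraries. Intervals on count ratios are exact binomial at 95% and cover counting error only. The members, the lists and the rule for named genes were chosen with earlier results of these data known; from each list the text names only genes that passed with one of the 3 largest absolute fold changes in a comparison, besides the 5 genes most like BMF and the 1 most like each other member. Results for 1 of the gene lists are not reported here. Promoter windows are from RefSeq, in which 6 of the 7 genes matched.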

Additional observations from a re-analysis of the deposited data

Results flagged for a closer look

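The change on suspension differed between the lines in the direct test for 4 of the 7 genes. As Tpm2.1 minus EV on the log2 scale, mean of 4 times, it was -1.168 for BMF, -0.471 for BBC3, 1.063 for PMAIP1 and 0.774 for BID (edgeR adjusted p = 4.18e-07, 0.0316, 9.11e-13 and 3.49e-07). The BBC3 call was lost under several alternatives: its value was -0.02 after removal of the GC trend (adjusted p = 0.948), -0.33 without 4 days (adjusted p = 0.154) and -0.46 in DESeq2 (adjusted p = 0.0633), and it was lost without any 1 of 7 of the 20 libraries. The suspended Tpm2.1 cells had been through Annexin V separation, and no such step is described for EV cells or attached cells. The part of that step was not tested.

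The difference between apoptotic and non-apoptotic Tpm2.1 cells was not the same at 4 days as at 5 hours for 6 of the 7 genes. As 4 days minus 5 hours on the log2 scale, it was -1.273 for BMF, -5.027 for BBC3, 0.547 for PMAIP1, -0.461 for BID, -7.785 for BAD and -3.936 for BIK, where 66.9% of all genes tested passed. The largest edgeR adjusted p among them was 0.00392, for BID. After removal of the GC trend BMF stood at -0.21 and BID at -0.25, neither of which passed, and PMAIP1 at -0.46, on the other side of 0. BBC3, BAD and BIK stood at -1.54, -4.79 and -2.72 and passed. The values for BAD and BIK are fitted from 0 to 3 counts in each 4-day apoptotic library and are no bounds.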

How the results depend on the processing

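Of 1064 fold changes of the 7 genes recomputed under the alternatives, 996 kept their side of the threshold, and their direction where they had passed. Another 49 lost the call, 8 gained one and 11 that had passed changed sign. Values that passed neither as reported nor under the alternative count among the 996 even where their sign differed. BIK in suspended over attached EV cells, for example, ran from -0.39 to 0.542 with 1 library left out. For BMF 149 of 152 were kept. The exceptions for BMF all concern apoptotic over non-apoptotic cells as the mean of 4 times, -0.30 as reported, which was -0.098 with the GC correction and -0.097 with block and correction, neither passed, and 0.019 without 4 days. In the same comparison PMAIP1, 0.09 as reported, was -0.145 with the correction, with or without the block, and -0.064 without 4 days, and its call was lost without any 1 of 13 of the 16 libraries; BBC3 was 0.175 and BAD 0.053 without 4 days, against -1.01 and -1.88 with them. The count of the 7 genes called there was 0 without 4 days, in edgeR and in DESeq2 (1 at an unadjusted p under 0.05 in edgeR), and 6 with them. For suspended over attached Tpm2.1 cells it was 5 with the correction, with or without the block, and 3 without. BAD in non-apoptotic Tpm2.1 over EV cells was 0.07 with the correction, with or without the block. BBC3 in apoptotic Tpm2.1 over EV cells, -0.51 as reported, was 0.491 with the correction, 0.49 with block and correction and 0.823 without 4 days. Of all genes, 3516 differed between attached lines, 5440 with those libraries fitted alone and 2028 to 2188 without 1 of them; without 4 days, 6612 against 9973 differed between the fractions and 7731 against 11692 between apoptotic Tpm2.1 and EV cells. Deviations of libraries with the same replicate number had correlations of -0.075 to 0.054 over 91 pairs of groups, with a median of 0.001. Between the apoptotic and non-apoptotic fractions, the 1-day and 2-day values, 0.053 and 0.049, lay near the top of that range. The 5-hour and 4-day values were 0.01 and -0.006. With 2 libraries a group, this check cannot decide whether the numbers pair the fractions. With the replicate block the BMF difference between the lines was -1.169, and no call of the 7 genes changed. The fit without the 4-day apoptotic libraries gave -1.134 for it. BIK, at 0 to 32 counts a library, and BBC3 in apoptotic cells at 4 days are limited by depth.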
